A study of Mus musculus with 11 samples.

Results

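The genes described here are the 107 mouse genes of the Hox, Pax, Irx, Lhx, Tbx, Dlx, Gata and Nkx families and of the sine oculis homeobox family, taken from the 49585 genes of the expression table by their symbols alone. A symbol had to consist of 1 of these family names and a number (as in Six4 or Tbx4), which for Nkx genes is a pair of numbers. The Hox genes of the 4 clusters gave 39 members (Hoxa 11, Hoxb 10, Hoxc 9 and Hoxd 9), and the others were 14 Nkx, 13 Tbx, 9 Pax, 8 Lhx and 6 each of Dlx, Gata, Irx and sine oculis genes. No measured value enters this rule. RNA had been sequenced from C57BL/6 mouse embryos at 2 stages: 2-cell embryos after ROSI (3 libraries) or after ICSI (3 libraries), and zygotes after ROSI (2) or after ICSI (3). ROSI embryos are made by injecting a round spermatid, the haploid male germ cell before it becomes a sperm, and ICSI embryos by injecting a sperm into the oocyte. ROSI embryos were activated for 1 to 2 h with 5 mM SrCl2 in CZB medium free of calcium and then kept in KSOM, whereas ICSI embryos were kept in KSOM throughout, so the paternal cell and the activation cannot be told apart. Libraries were made from 1 ng of total RNA with a stranded SMART-seq kit, and the labels do not say whether replicates came from separate batches of embryos, so a p-value measures only the spread between these libraries.

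Homeobox, paired-box, T-box and Gata genes encode transcription factors that bind DNA and set the identity of cells and body regions. Hox genes lie in 4 clusters and pattern the axis of the embryo from head to tail, Pax, sine oculis, Lhx, Dlx, Irx and Nkx genes pattern the nervous system, sense organs and other organs, T-box genes act in mesoderm, heart and limbs, and Gata genes act in blood, heart and endoderm. Most of them are classical targets of Polycomb repression in cells that have not yet taken on a fate. The zygote and the 2-cell embryo precede the stages at which most of them are known to act. A transcript found in a zygote can have been stored by the oocyte, and in mouse the embryo's own genome is widely transcribed from the 2-cell stage on.

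Levels are in TPM, the usual unit that divides each gene's reads by its length and scales every library to the same total, so that levels of different genes can be set side by side. A gene is called detected in a group if it had at least 1 TPM in every library of the group, silent if it was listed at 0 in every library, and a trace otherwise. By this measure 28 of the 107 genes (26.2%) were detected in ROSI 2-cell embryos and 14 (13.1%) in ROSI zygotes, and 27 (25.2%) in ICSI 2-cell embryos and 17 (15.9%) in ICSI zygotes. Of all 21309 protein-coding genes of the table, 54.3% and 50.4% were detected in ROSI 2-cell embryos and ROSI zygotes, and 52.5% and 49.6% in ICSI 2-cell embryos and ICSI zygotes. Only 2 members were silent in ROSI 2-cell embryos and 3 in ROSI zygotes, and 7 in ICSI 2-cell embryos and 1 in ICSI zygotes. These are shares of 1.87% and 2.80% after ROSI and 6.54% and 0.935% after ICSI, where 8.12% and 12.3% of all protein-coding genes were silent in ROSI 2-cell embryos and ROSI zygotes, and 12.4% and 9.65% in ICSI 2-cell embryos and ICSI zygotes. The rest were traces, 77 genes in ROSI 2-cell embryos, 90 in ROSI zygotes, 73 in ICSI 2-cell embryos and 89 in ICSI zygotes. No member was listed at 0 in all 11 libraries, and 49 were above 0 in all 11. In bulk embryo RNA, fewer cells that express a gene and less of its RNA per cell cannot be told apart.

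**Figure D1:**
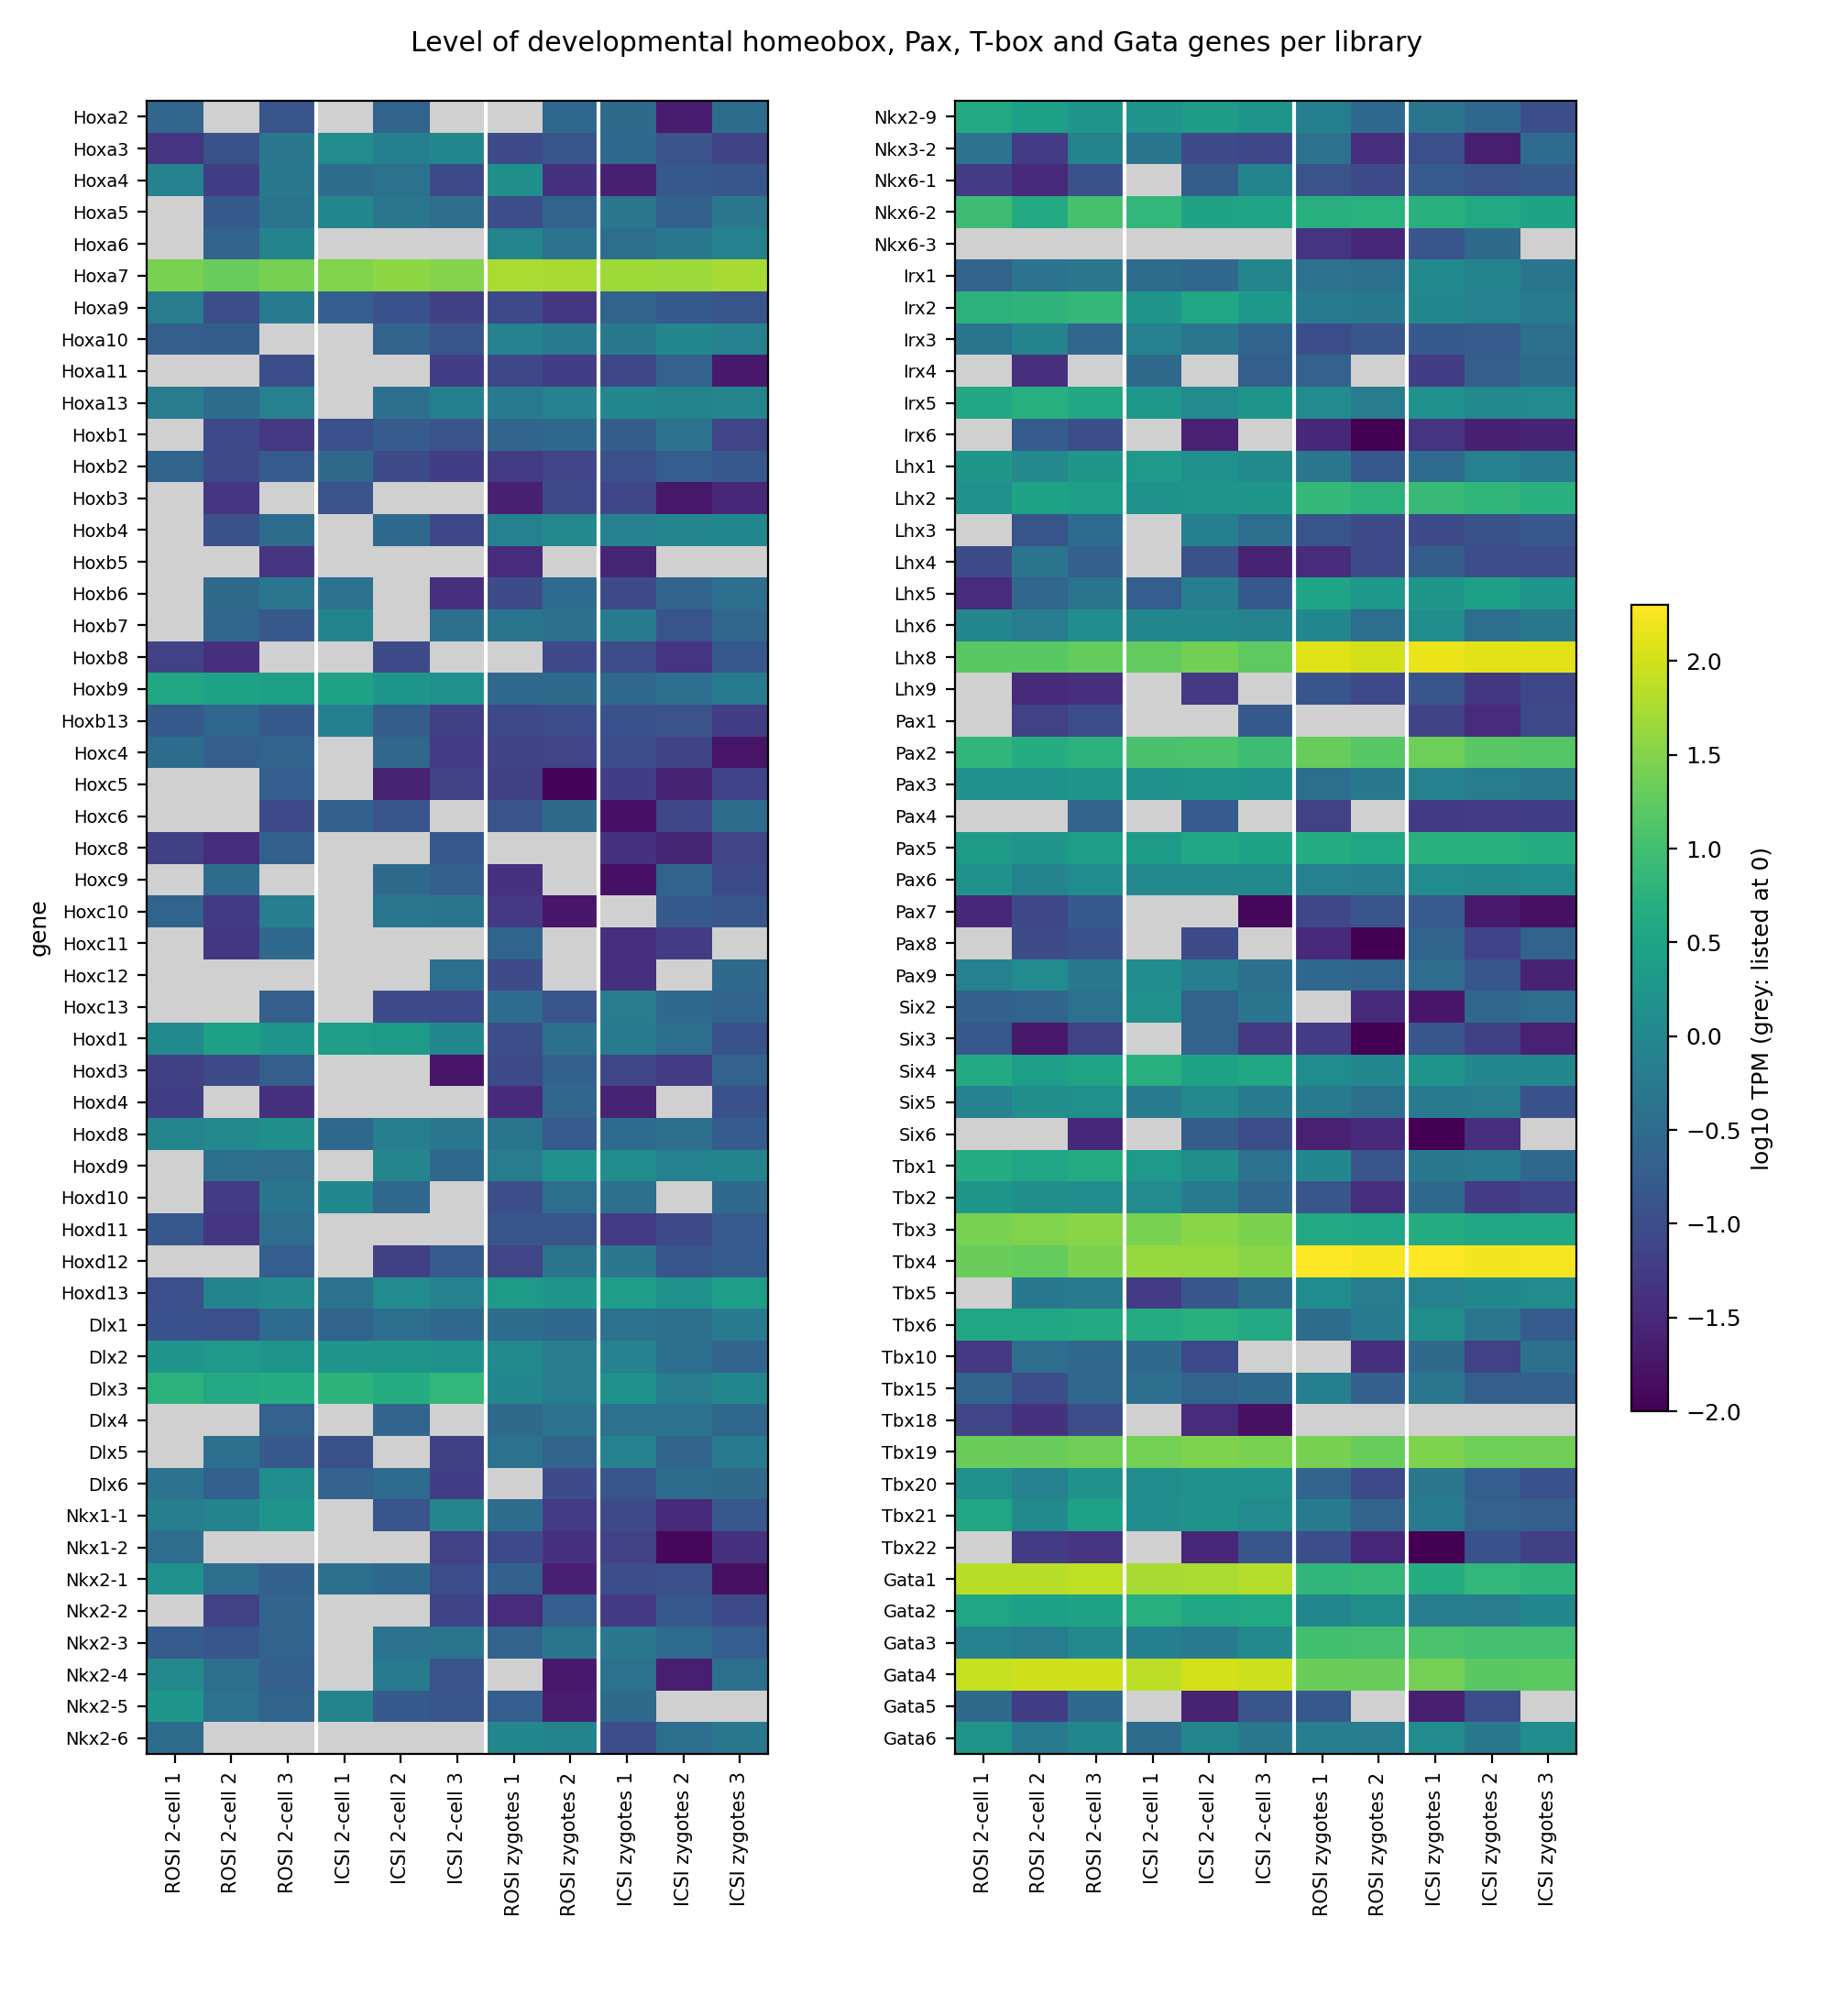
Level of the genes reported (rows) in each of the 11 libraries (columns), as log10 of TPM, with values listed at 0 in grey and white lines between the 4 groups. Most rows are dark, Gata1, Gata4 and Tbx3 are bright in 2-cell embryos, Tbx4, Lhx8 and Hoxa7 are bright in zygotes, and the library of ICSI 2-cell replicate 1 holds the most grey cells, 43.

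A core of 11 genes was detected in all 4 groups: Hoxa7, Gata1, Gata4, Lhx2, Lhx8, Nkx6-2, Pax2, Pax5, Tbx3, Tbx4 and Tbx19. Gata3, Hoxd13 and Lhx5 were detected in both zygote groups and in neither 2-cell group. Another 12 were detected in both 2-cell groups and in neither zygote group, among them Dlx2, Dlx3, Gata2, Hoxb9, Irx2, Lhx1, Nkx2-9, Pax3, Six4, Tbx6 and Tbx21. Irx5 was detected everywhere except in ROSI zygotes, and Pax6 in both ICSI groups. Pax6 lay close to the threshold, with 1.61, 0.842 and 1.21 TPM in ROSI and 1.04, 1.08 and 1.10 TPM in ICSI 2-cell embryos. Its 2-cell mean was higher after ROSI, 1.22 TPM, than after ICSI, 1.07 TPM. Hoxd1, Tbx1 and Tbx2 were detected in ROSI 2-cell embryos alone among the groups, and Tbx20 in ICSI 2-cell embryos alone. Hoxd1 and Tbx20 lay close to the threshold: Hoxd1 had 1.15, 2.78 and 1.83 TPM in ROSI 2-cell embryos and 2.55, 2.24 and 0.983 TPM in ICSI 2-cell embryos, and Tbx20 had 1.46, 0.812 and 1.64 TPM in ROSI and 1.30, 1.49 and 1.49 TPM in ICSI 2-cell embryos.

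Families contributed unevenly. T-box genes had the most, with 8 of 13 detected in at least 1 group, followed by 4 each of the 6 Gata, 8 Lhx and 9 Pax genes. Smaller shares came from Dlx, Irx and the sine oculis genes (each 2 of 6), Nkx (2 of 14), Hoxa (2 of 11) and Hoxd (2 of 9). Hoxb gave 1 of 10, and none of the 9 Hoxc genes was detected in any group. The remaining 74 members were detected in no group, and 25 of them reached a group mean of at least 0.5 TPM. Among these were Hoxa3, Hoxa4, Hoxa5, Hoxa6, Hoxa10, Hoxa13, Hoxb4, Hoxd8, Hoxd9, Dlx5, Dlx6, Gata6, Irx1, Irx3, Lhx6, Nkx1-1, Nkx2-1, Nkx2-4, Nkx2-5, Nkx2-6, Pax9, Six2, Six5 and Tbx5. The highest group mean among them was 1.18 TPM, of Six5 in ROSI 2-cell embryos, where the libraries had 0.802, 1.32 and 1.41 TPM, against 0.615, 1.05 and 0.560 TPM in ICSI 2-cell embryos. The other 49 stayed under 0.5 TPM in every group mean: 9 Hoxc, 8 Hoxb, 6 Nkx, 5 Hoxd, 4 Pax, 4 Tbx, 3 Hoxa, 3 Lhx, 2 Dlx, 2 Irx, 2 sine oculis and 1 Gata gene, the last being Gata5.

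The silent genes were few, and none was silent in all 4 groups. Tbx18, a T-box gene of the somites and the heart's pacemaker region, was listed at 0 in all 5 zygote libraries, and in 2-cell embryos it had 4, 2 and 4 reads after ROSI and 0, 2 and 1 reads after ICSI. The 0 reads allow at most 0.0162 TPM in ROSI zygotes and 0.00871 TPM in ICSI zygotes (3 reads over the libraries of a group; such limits cover counting error only). Nkx6-3, a homeobox gene of the stomach, was the only gene at 0 in all 6 libraries of 2-cell embryos, and its zygote reads numbered 1 and 2 after ROSI and 8, 17 and 0 after ICSI. Hoxc8 and Pax1 were silent in ROSI zygotes, where ICSI zygotes had 3, 2 and 5 reads of Hoxc8 and 9, 4 and 9 reads of Pax1. Hoxc12 was silent in ROSI 2-cell embryos, against 0, 0 and 5 reads in ICSI 2-cell embryos. In ICSI 2-cell embryos the silent genes besides Nkx6-3 were Hoxa6, Hoxb5, Hoxc11, Hoxd4, Hoxd11 and Nkx2-6, and the 0 reads allow between 0.0242 TPM for Hoxd11 and 0.117 TPM for Hoxa6. The same 6 genes had few reads in ROSI 2-cell embryos too: 0, 2 and 6 for Hoxa6, 0, 0 and 1 for Hoxb5, 0, 1 and 5 for Hoxc11, 2, 0 and 1 for Hoxd4, 7, 2 and 12 for Hoxd11 and 4, 0 and 0 for Nkx2-6.

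The number of genes without a read has to be read against the depth of the libraries. Between 10 and 43 members were at 0 in a 2-cell library, with 8.48 to 32.9 M recovered reads (M for 1e6), and between 2 and 10 in a zygote library, with 30.4 to 85.9 M reads. The largest number, 43, belonged to the shallowest library, ICSI 2-cell replicate 1. If every library were thinned to its depth, a step chosen after seeing the data, the expected numbers would be 37.3, 27.5 and 17.5 in ROSI 2-cell embryos, 43, 29.3 and 31.8 in ICSI 2-cell embryos, 29.2 and 34.7 in ROSI zygotes, and 27.8, 31.2 and 29.5 in ICSI zygotes. At a common depth the ranges of the 4 groups thus overlap, and the fewest zeros, 17.5, fall in ROSI 2-cell replicate 3. The count of silent genes is read against this: in ICSI 2-cell embryos it is 8 without replicate 1, 14 without replicate 2 and 15 without replicate 3, and in ROSI zygotes it is 10 without replicate 1 and 9 without replicate 2. In ROSI 2-cell embryos it is 4, 5 and 11 without replicates 1, 2 and 3, and in ICSI zygotes 3, 1 and 1.

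**Figure D2:**
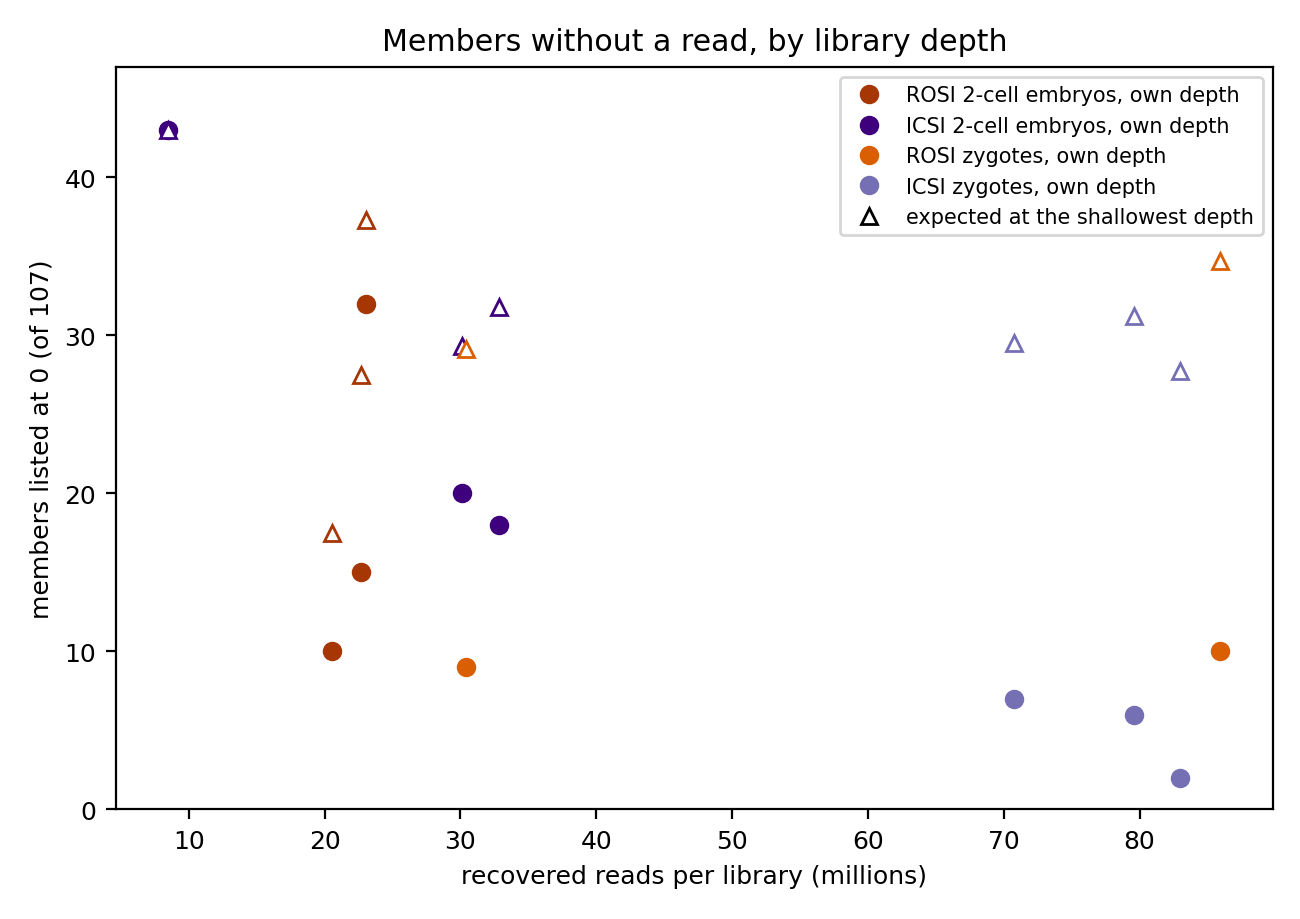
Number of the 107 genes listed at 0 (vertical axis) against the recovered reads of each library in M (horizontal axis). Filled circles are the 11 libraries at their own depth and open triangles the number expected at the depth of the shallowest one, which range from 17.5 to 43 against 2 to 43 at own depth.

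The stretches of DNA just upstream of the start sites are shown for members on both sides of this divide, because promoters rich in the dinucleotide CG are the usual seats of Polycomb repression. RefSeq (GRCm38.p6) gave the 250 bases before the start for 70 of the 107 members, and the following are those of 3 genes that were silent in at least 1 group, 5′ to 3′, with each CG in capitals. Tbx18 starts after chr9:87731261-87731510 on the minus strand, Hoxd4 after chr2:74721728-74721977 on the plus strand and Pax1 after chr2:147364744-147364993 on the plus strand.
Tbx18: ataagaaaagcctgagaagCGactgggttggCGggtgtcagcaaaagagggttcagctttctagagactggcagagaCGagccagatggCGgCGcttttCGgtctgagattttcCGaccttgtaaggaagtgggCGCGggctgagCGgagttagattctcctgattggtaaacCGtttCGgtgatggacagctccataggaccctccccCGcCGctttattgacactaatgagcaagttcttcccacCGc
Hoxd4: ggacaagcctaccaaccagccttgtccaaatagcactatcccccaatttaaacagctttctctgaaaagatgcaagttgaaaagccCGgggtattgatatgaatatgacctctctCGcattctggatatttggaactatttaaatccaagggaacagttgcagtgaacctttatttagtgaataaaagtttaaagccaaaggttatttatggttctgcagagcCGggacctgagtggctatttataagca
Pax1: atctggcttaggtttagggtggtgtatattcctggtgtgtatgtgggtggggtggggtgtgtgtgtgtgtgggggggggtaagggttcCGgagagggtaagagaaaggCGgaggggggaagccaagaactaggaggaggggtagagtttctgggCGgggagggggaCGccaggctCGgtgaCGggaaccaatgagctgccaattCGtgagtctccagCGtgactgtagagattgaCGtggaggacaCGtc

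These 3 stretches hold 15, 3 and 10 CG dinucleotides. Those of Hoxd4 and Pax1 lie inside the annotated span of their gene, so each belongs to 1 of the possible starts. Calling a stretch CG-rich if at least 50% of its bases are G or C and the CG count is at least 0.6 of the number expected from its C and G content, Tbx18 and Pax1 are CG-rich and Hoxd4 is not. Of the 70 members with a sequence, 37 (52.9%) are CG-rich, against 31.4% of the 27025 promoters of the whole RefSeq table. Among members detected in at least 1 group the share was 15 of 23 (65.2%), and among those detected in none it was 22 of 47 (46.8%), with medians of 19 and 13 CG in the 250 bases. These are descriptions of the sequence, and no methylation or Polycomb mark was measured.

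A few genes carried most of the families' RNA. Tbx4, a T-box gene of the hindlimb and lung, made up 39.2% of the members' summed level in ROSI zygotes and 36.0% in ICSI zygotes, with mean levels of 194 and 180.0 TPM. Lhx8, a LIM-homeobox gene that mouse oocytes need to grow, came second with 113 TPM in ROSI and 136 TPM in ICSI zygotes. Hoxa7 came next with 55.8 TPM in ROSI and 49.7 TPM in ICSI zygotes. At the 2-cell stage the order was another one, led by Gata4 with 92.2 TPM in ROSI and 90.7 TPM in ICSI embryos and by Gata1 with 73.2 TPM in ROSI and 59.7 TPM in ICSI embryos. Gata4 and Gata1 together with Tbx3, Hoxa7 and Tbx4 were the 5 highest members in both 2-cell groups. The members' levels summed to 381 TPM in ROSI 2-cell embryos and 495 TPM in ROSI zygotes, and to 395 TPM in ICSI 2-cell embryos and 501 TPM in ICSI zygotes. Tbx19, a T-box gene of the pituitary, was among the 6 highest members in all 4 groups, with 21.8, 21.1 and 22.9 TPM in ROSI 2-cell embryos, 26.1 and 19.9 TPM in ROSI zygotes, 25.6, 29.0 and 26.8 TPM in ICSI 2-cell embryos and 29.4, 22.2 and 23.1 TPM in ICSI zygotes. It passed the test in no comparison, and its libraries overlapped between all of these groups except ROSI and ICSI 2-cell embryos.

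The 4 Hox clusters were unequal. Hoxa7 alone gave 82.2% of the summed level of the Hoxa cluster in ROSI 2-cell embryos and 93.0% in ROSI zygotes, and 88.1% in ICSI 2-cell embryos and 91.9% in ICSI zygotes. The neighbouring Hoxa genes lay far below it: Hoxa6 averaged 0.670 ± 0.341 TPM (SD, n = 2) in ROSI zygotes and 0.559 ± 0.210 TPM (SD, n = 3) in ICSI zygotes. A read from the antisense transcript Hoxaas3, which overlaps an exon of Hoxa7, cannot be told from a Hoxa7 read if the counting ignored the strand, and the setting is not given in the sources used here; Hoxaas3 itself averaged 0.0748 TPM in ROSI zygotes and 0.0787 TPM in ICSI zygotes. The 9 Hoxc genes together summed to 1.08 TPM in ROSI 2-cell embryos and 0.792 TPM in ROSI zygotes, and to 0.978 TPM in ICSI 2-cell embryos and 1.09 TPM in ICSI zygotes. In the Hoxd cluster the highest group means belonged to Hoxd1 in 2-cell embryos and to Hoxd13, at the other end, in zygotes. The annotated spans of Hoxd3 and Hoxd4 overlap on the same strand, as do those of Hoxc5 and Hoxc10, so their reads can be split or dropped.

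**Figure D3:**
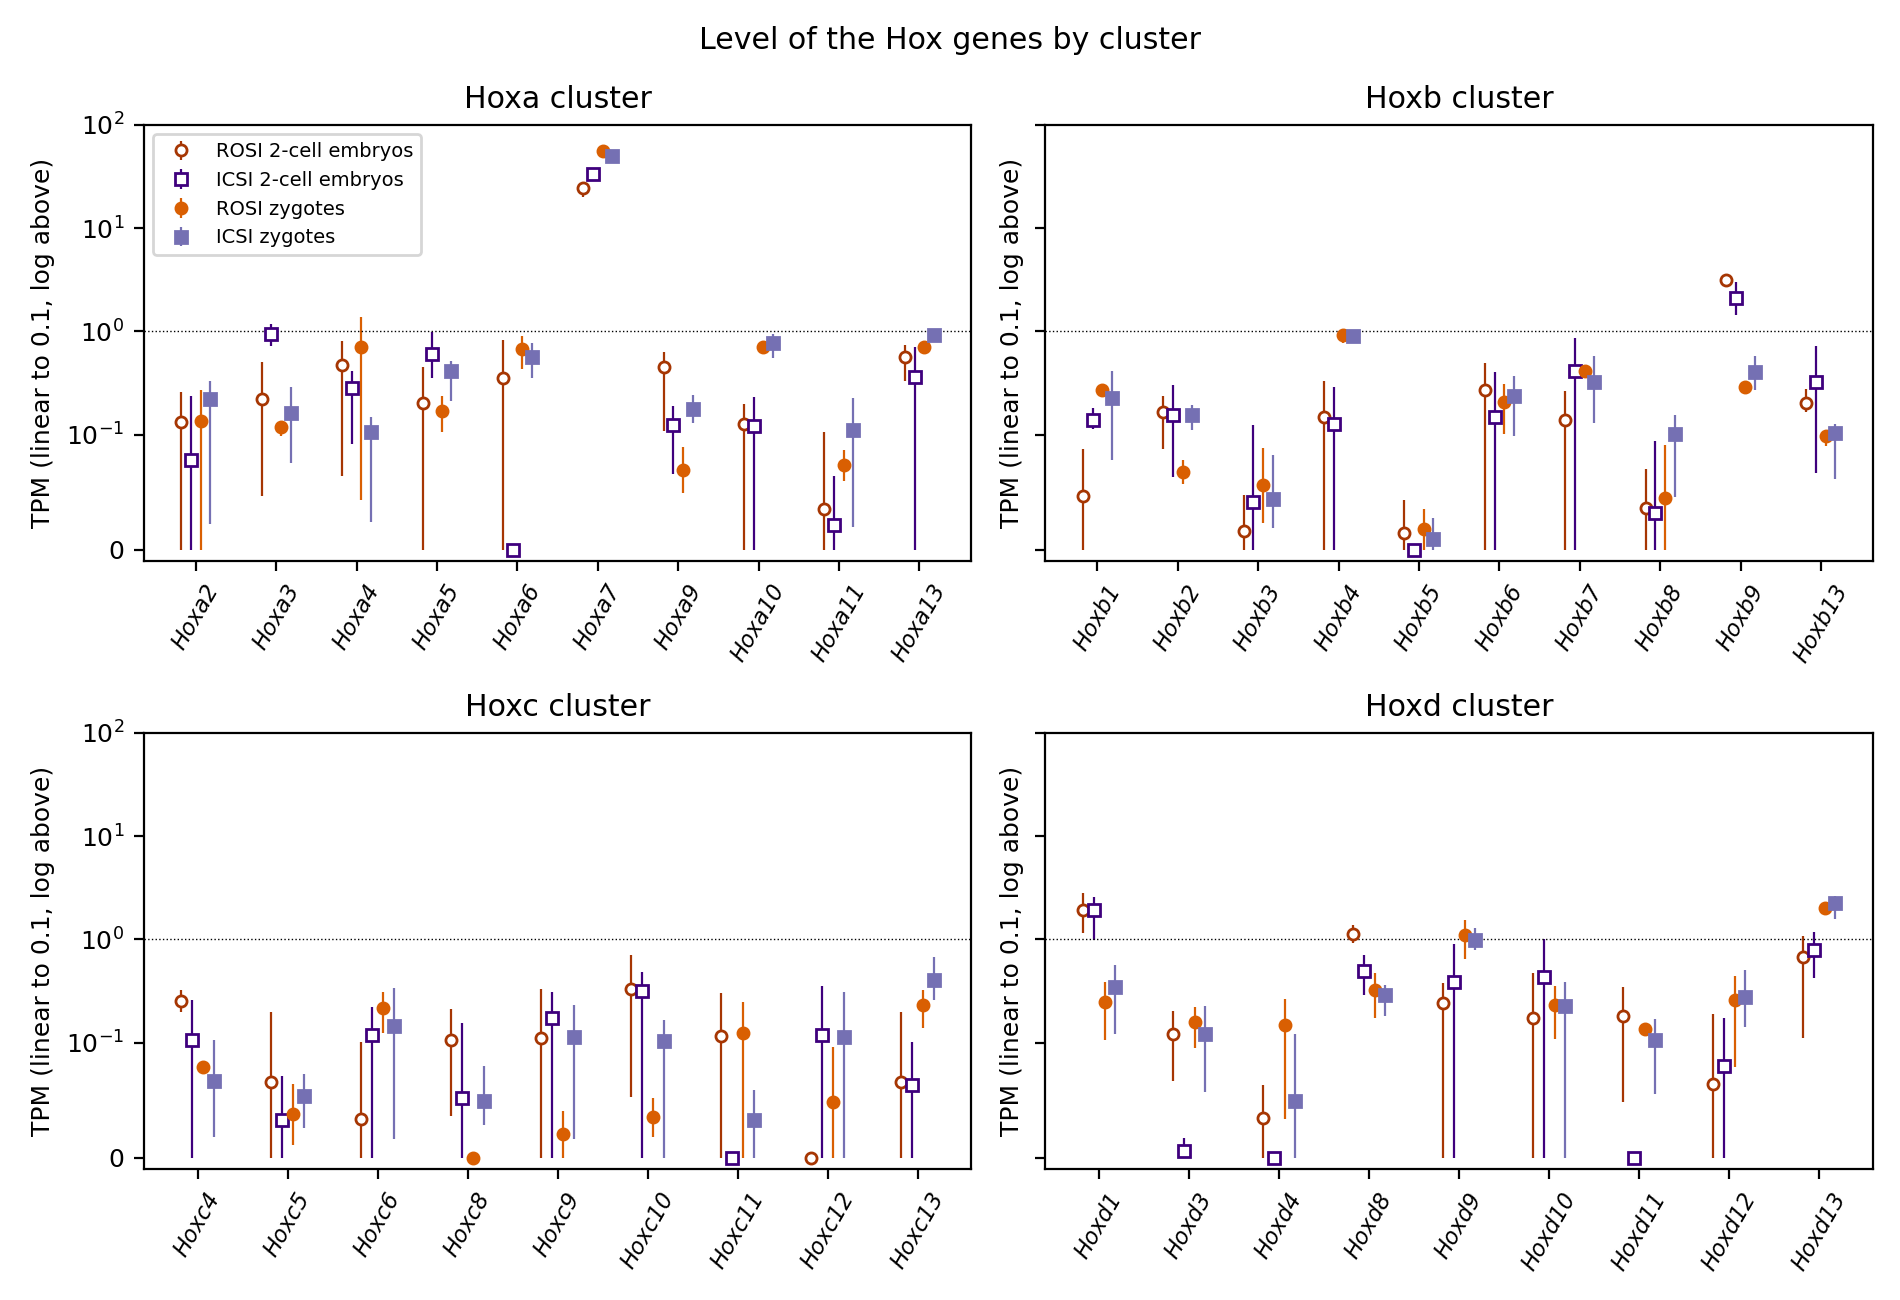
Mean level in TPM of Hox genes (vertical axis, linear to 0.1 and log above) by number within the 4 clusters (panels), for the 4 groups (symbols), with lines from the lowest to the highest library and a dotted line at 1 TPM. Hoxa7 stands at 24.4 to 55.8 TPM in the group means, and all Hoxc means stay at or under 0.408 TPM.

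The comparison of ROSI with ICSI embryos asks whether embryos made with a spermatid and SrCl2 activation differ in their RNA from embryos made with a sperm. It was tested with limma on log2(TPM + 1) after leaving out genes that reached 1 TPM in fewer than 2 libraries, and p-values were adjusted by the Benjamini-Hochberg method over all 21938 genes left. Of the 107 members 41 were left, and since a gene may pass through the group in which it is high, the counts below describe those 41 and not the families. Differences on this scale understate the change of genes near 1 TPM. In zygotes, no member passed the adjusted threshold of 0.05, where the background is 0.146% of all genes called, 0.114% higher and 0.0319% lower after ROSI. No member had an unadjusted p under 0.05 either, against 6.35% of all genes. Differences ran from -0.39 (SE 0.20, adjusted p = 0.875) for Pax6, the eye gene, to 0.36 (SE 0.22, adjusted p = 0.962) for Dlx2, a gene of the forebrain and facial arches, with a median standard error of 0.24. Pax6 had 0.741 and 0.627 TPM in ROSI zygotes, against 1.20, 1.14 and 1.26 TPM in ICSI zygotes, and in 2-cell embryos 1.61, 0.842 and 1.21 TPM after ROSI, against 1.04, 1.08 and 1.10 TPM after ICSI. The ROSI and ICSI zygote libraries of Pax6 did not overlap, nor did those of Lhx8, Pax5 and Hoxa7 among others, and none of these genes passed. With 2 ROSI libraries a lack of overlap carries little weight, and its share over all genes was not counted in zygotes.

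At the 2-cell stage 6 of the 41 tested members differed, 14.6% against a background of 9.51% of all genes called. Irx2, Irx5 and Tbx1 were higher in ROSI embryos, where 4.93% of all genes were called higher, and Tbx4 and Pax2 were among the lower ones, where 4.58% were called lower. The ROSI and ICSI libraries did not overlap in 12 of the 41 members, the 6 and 6 that missed the threshold, and in 27.3% of all genes tested, so the members' share is near the background. The median difference was 0.03 over the 41 members and 0.04 over all genes tested. Of all genes 1082 were called higher and 1005 lower, and with median-ratio scaling 1046 and 2363, when 3 members were called higher and 5 lower, Hoxa7 and Tbx19 being added to the lower ones.

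Irx2 and Irx5 are Iroquois homeobox genes, which in mouse lie in separate clusters and act in heart and neural patterning. Irx2 (chr13:72628820-72634198, plus strand) had 5.79, 6.22 and 7.40 TPM in ROSI 2-cell embryos, against 1.77, 3.63 and 1.98 TPM in ICSI 2-cell embryos, a ratio of means of 2.63 and a log2 difference of 1.14 (SE 0.21, adjusted p = 0.0118). In zygotes it had 0.576 and 0.551 TPM after ROSI and 1.00, 0.765 and 0.564 TPM after ICSI, so every 2-cell library lay above every zygote library. Irx5 (chr8:92357625-92376286, plus strand) had 3.68, 4.93 and 3.69 TPM in ROSI 2-cell embryos, against 1.94, 1.17 and 1.85 TPM in ICSI 2-cell embryos, a ratio of 2.48 and a log2 difference of 0.95 (SE 0.19, adjusted p = 0.0169). Its zygote levels were 1.18 and 0.644 TPM after ROSI and 1.51, 1.08 and 1.18 TPM after ICSI, and the lowest ICSI 2-cell library lay within that range. Tbx1, a T-box gene of the pharyngeal arches (chr16:18580979-18590671, minus strand), had 4.59, 3.37 and 4.44 TPM in ROSI 2-cell embryos, against 2.08, 1.36 and 0.412 TPM in ICSI 2-cell embryos, with a log2 difference of 1.23 (SE 0.30, adjusted p = 0.0331). It was at 1.01 and 0.134 TPM in ROSI zygotes and 0.523, 0.583 and 0.279 TPM in ICSI zygotes, and the lowest ICSI 2-cell library lay within the zygote range. The other 4 Iroquois genes stayed under 1 TPM in every 2-cell library.

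Tbx4 (chr11:85886422-85916097, plus strand) had 21.6, 19.5 and 28.5 TPM in ROSI 2-cell embryos, against 43.3, 41.9 and 34.8 TPM in ICSI 2-cell embryos, a log2 difference of -0.77 (SE 0.15, adjusted p = 0.0152). Its zygote levels, 212 and 175 TPM after ROSI and 203, 165 and 172 TPM after ICSI, were higher than in any 2-cell library. Pax2, a paired-box gene of the kidney, eye and ear (chr19:44756045-44837871, plus strand), had 6.81, 4.54 and 5.81 TPM in ROSI 2-cell embryos, against 11.7, 12.1 and 9.08 TPM in ICSI 2-cell embryos, a log2 difference of -0.84 (SE 0.19, adjusted p = 0.0259). It was at 20.1 and 15.1 TPM in ROSI zygotes and 22.1, 15.6 and 14.6 TPM in ICSI zygotes. Hoxa7, which narrowly missed the threshold, had 27.5, 20.0 and 25.7 TPM in ROSI 2-cell embryos, against 30.2, 36.7 and 32.1 TPM in ICSI 2-cell embryos, with a log2 difference of -0.43 (SE 0.13, adjusted p = 0.0595).

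**Figure D4:**
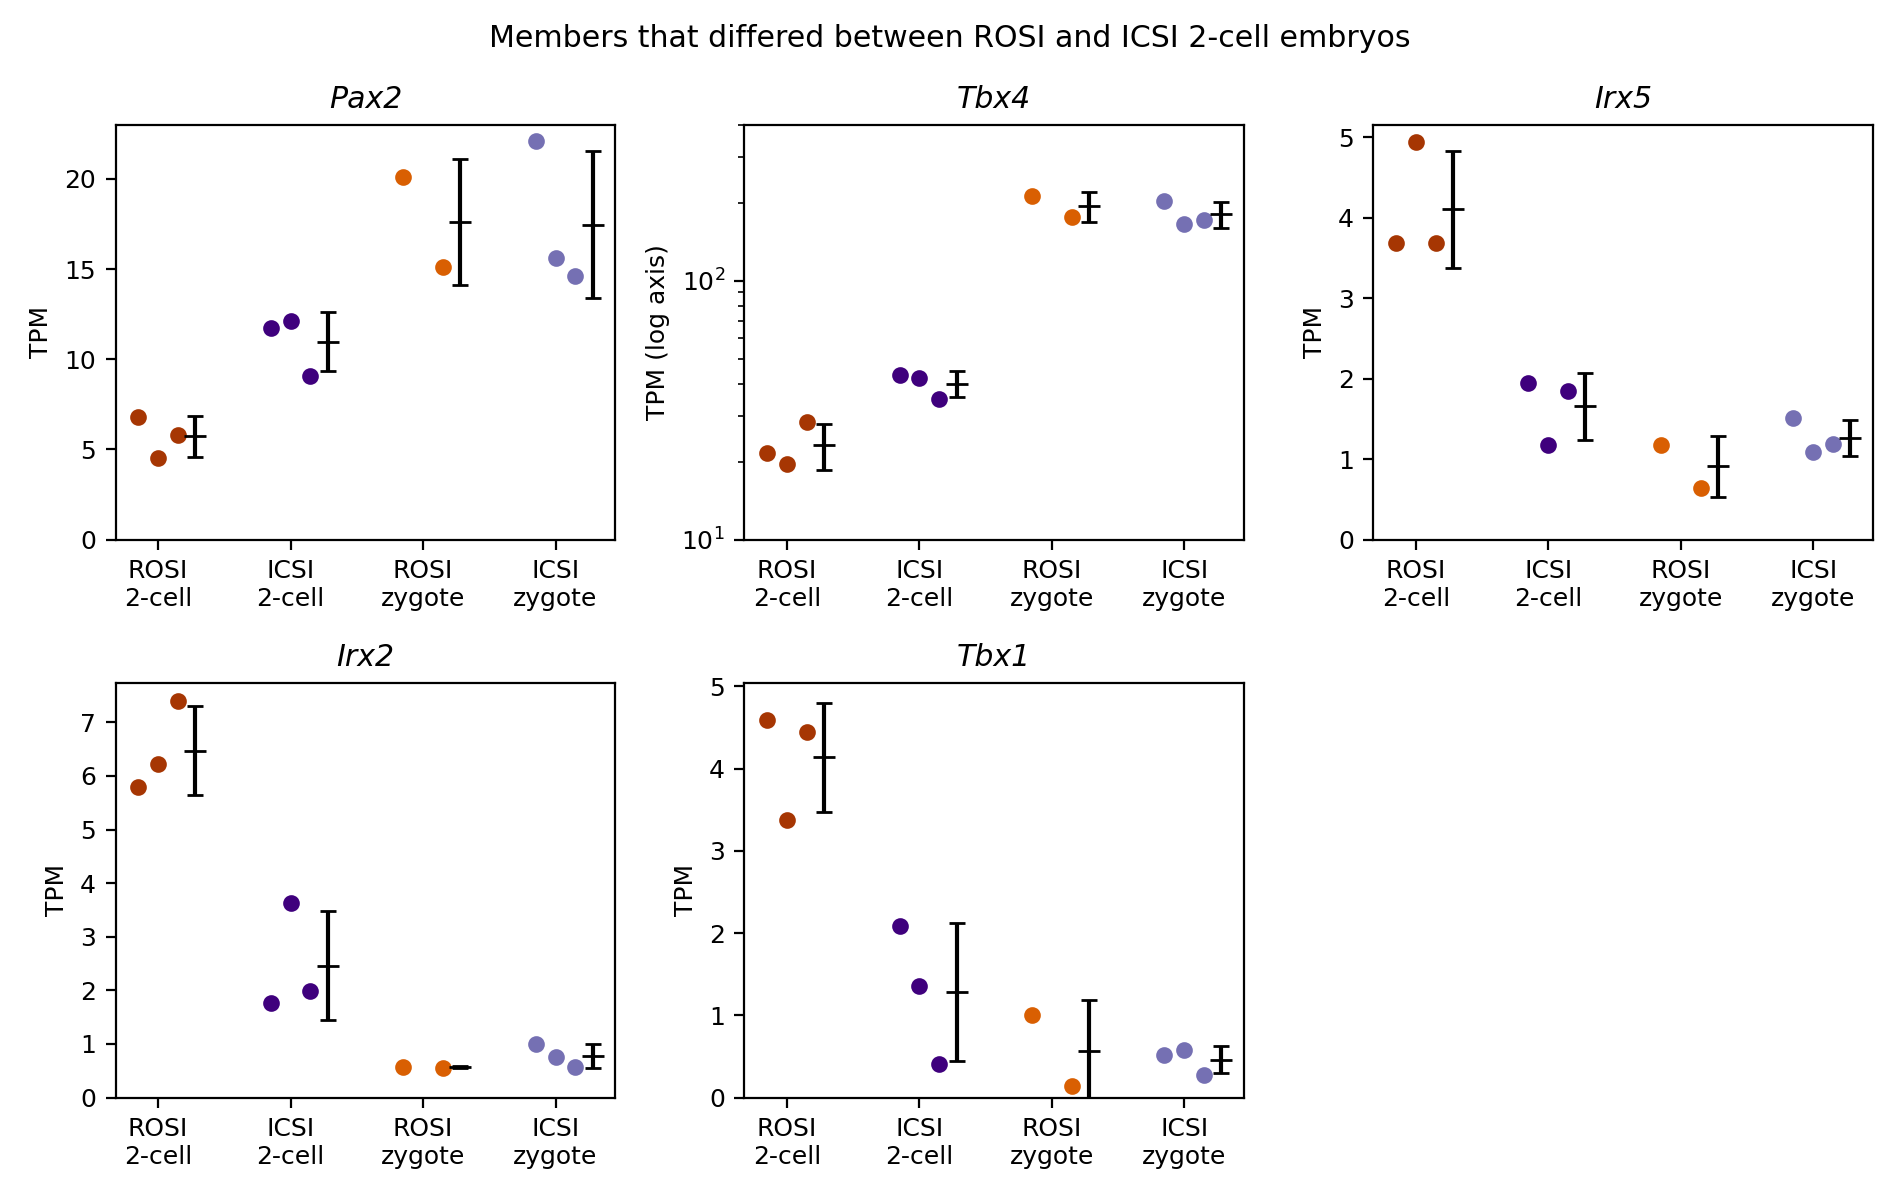
Level in TPM (vertical axis, on a log scale for Tbx4) of Irx2, Irx5, Tbx1, Tbx4 and Pax2, 1 panel per gene, in each library (points) of the 4 groups (horizontal axis), with the mean and SD as bars (that of Tbx1 in ROSI zygotes is cut at 0). In every panel the 3 ROSI and the 3 ICSI 2-cell libraries do not overlap.

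Genes next to each other on a chromosome were looked at as well. Tbx2, a repressor in heart and limb that lies 44.5 kb from Tbx4 on chromosome 11, had 1.92, 1.40 and 1.31 TPM in ROSI 2-cell embryos, against 1.17, 0.621 and 0.262 TPM in ICSI 2-cell embryos, with a difference of 0.62 (SE 0.24, adjusted p = 0.125) opposite in sign to that of Tbx4. Irx2 and Irx5 are on chromosomes 13 and 8, so no neighbourhood is shared between them.

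RefSeq promoter stretches of Irx2, Tbx1, Tbx4 and Pax2 are printed so that the higher and the lower genes can be set side by side, again as the 250 bases before the start, 5′ to 3′, with each CG in capitals. Irx2 starts after chr13:72628570-72628819 on the plus strand, Tbx1 after chr16:18590672-18590921 on the minus strand, Tbx4 after chr11:85896515-85896764 on the plus strand and Pax2 after chr19:44755502-44755751 on the plus strand.
Irx2: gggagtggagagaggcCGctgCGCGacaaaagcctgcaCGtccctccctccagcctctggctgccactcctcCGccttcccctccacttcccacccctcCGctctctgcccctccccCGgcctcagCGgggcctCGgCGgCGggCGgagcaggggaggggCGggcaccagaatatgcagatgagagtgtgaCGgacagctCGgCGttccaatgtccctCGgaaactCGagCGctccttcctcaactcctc
Tbx1: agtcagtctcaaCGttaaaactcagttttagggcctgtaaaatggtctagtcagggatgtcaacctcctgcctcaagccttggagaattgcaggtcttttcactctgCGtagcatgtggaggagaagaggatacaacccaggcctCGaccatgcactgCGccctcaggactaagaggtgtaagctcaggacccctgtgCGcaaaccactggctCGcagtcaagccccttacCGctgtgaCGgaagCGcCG
Tbx4: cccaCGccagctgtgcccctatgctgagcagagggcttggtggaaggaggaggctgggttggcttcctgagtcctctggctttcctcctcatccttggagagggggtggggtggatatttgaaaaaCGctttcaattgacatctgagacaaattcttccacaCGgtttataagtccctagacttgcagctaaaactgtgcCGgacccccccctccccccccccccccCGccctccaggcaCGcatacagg
Pax2: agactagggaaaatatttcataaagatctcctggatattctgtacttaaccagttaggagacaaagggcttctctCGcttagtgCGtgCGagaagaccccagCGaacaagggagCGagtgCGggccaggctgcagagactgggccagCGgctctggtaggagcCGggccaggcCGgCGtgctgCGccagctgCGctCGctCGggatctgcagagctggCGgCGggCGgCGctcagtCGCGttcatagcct

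They hold 19, 10, 6 and 20 CG dinucleotides, and those of Irx2 and Pax2 are CG-rich by the measure above while those of Tbx1 and Tbx4 are not. Each kind is thus found once among Irx2 and Tbx1, which were higher in ROSI embryos, and once among Tbx4 and Pax2, which were lower. The RefSeq start of Tbx4 lies inside the gene's annotated span, and that of Pax2 a little before it, so each stretch belongs to 1 of the possible starts.

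The calls differed in how firmly they stood. Irx2 passed with any 1 of the 6 libraries left out, while Tbx4 had an adjusted p of 0.0525 without ROSI replicate 2. Irx5 had 0.0596 without that library and 0.0525 without ICSI replicate 2. Pax2 had 0.0857, 0.0750 and 0.0789 without ROSI replicate 2, ICSI replicate 1 and ICSI replicate 2. Tbx1 passed only without ICSI replicate 1, with an adjusted p of 0.0783, 0.0622 and 0.0683 without ROSI replicates 1, 2 and 3, and 0.0676 and 0.0696 without ICSI replicates 2 and 3. When the 6 libraries of 2-cell embryos were fitted alone, without the spread of the zygotes, 0.387% of all genes were called, and none of the 6 passed, with adjusted p-values of 0.0865 for Irx2 and 0.114 for Tbx1. Under median-ratio scaling all 6 passed, in the same directions.

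Markers of the stage and of other cells were read beside these values. The shares of all genes called were 9.51% in 2-cell embryos, 4.93% higher and 4.58% lower after ROSI, and 0.146% in zygotes. Markers of the 2-cell embryo, such as the Zscan4 genes, were lower in ROSI 2-cell embryos for 8 of 11 genes, with summed levels of 467 to 670 TPM in ROSI and 951 to 1001 TPM in ICSI libraries. Of 12 oocyte markers 5 were lower, with sums of 942 to 1145 TPM in ROSI and 1515 to 1517 TPM in ICSI 2-cell embryos. Spermatid markers were higher for 7 and lower for 1 of 17 tested, with sums of 92.7 to 112 TPM in ROSI and 86.9 to 98.4 TPM in ICSI 2-cell embryos; in zygotes 6 were higher, with sums of 212 to 321 TPM after ROSI and 149 to 157 TPM after ICSI. Of 8 markers of earlier male germ cells 1 was higher and 1 lower, with sums of 463 to 561 TPM in ROSI and 598 to 635 TPM in ICSI 2-cell embryos. Cumulus and granulosa cell markers summed to 193 to 209 TPM in ROSI and 176 to 208 TPM in ICSI 2-cell embryos. Of these 20 genes 7 were detected in ROSI and 8 in ICSI 2-cell embryos, and 1 of the 10 tested was lower. Sertoli and Leydig cell markers, of which Ctsl alone gave most, summed to 415 to 518 TPM in ROSI and 312 to 410 TPM in ICSI 2-cell embryos and none of 6 passed, and blood markers, at 5.92 to 7.34 TPM in ROSI and 7.79 to 9.98 TPM in ICSI 2-cell embryos, had none of 5. The part of these differences in those of the 6 genes was not tested.

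The comparison of 2-cell embryos with zygotes asks how the families' RNA changes over the first division, and it was made within ROSI and within ICSI embryos. In ROSI embryos 32 of the 41 tested members passed, 22 higher and 10 lower in 2-cell embryos, against a background of 67.9% of all genes called, 35.6% higher and 32.3% lower. In ICSI embryos 29 passed, 18 higher and 11 lower, against a background of 68.1%, 33% higher and 35% lower. These shares, 78.0% and 70.7%, are near those of all genes, and the median log2 difference was 0.68 for members and 0.19 for all genes in ROSI, and 0.53 and 0.00 in ICSI embryos. Both comparisons gave 18 genes higher and 10 lower in common, and none passed in opposite directions. Protein-coding genes took 44.6 to 51.4% of all TPM in 2-cell libraries and 65.9 to 71.5% in zygote libraries, which bears on levels in TPM at every gene, and its part in these differences was not tested.

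**Figure D5:**
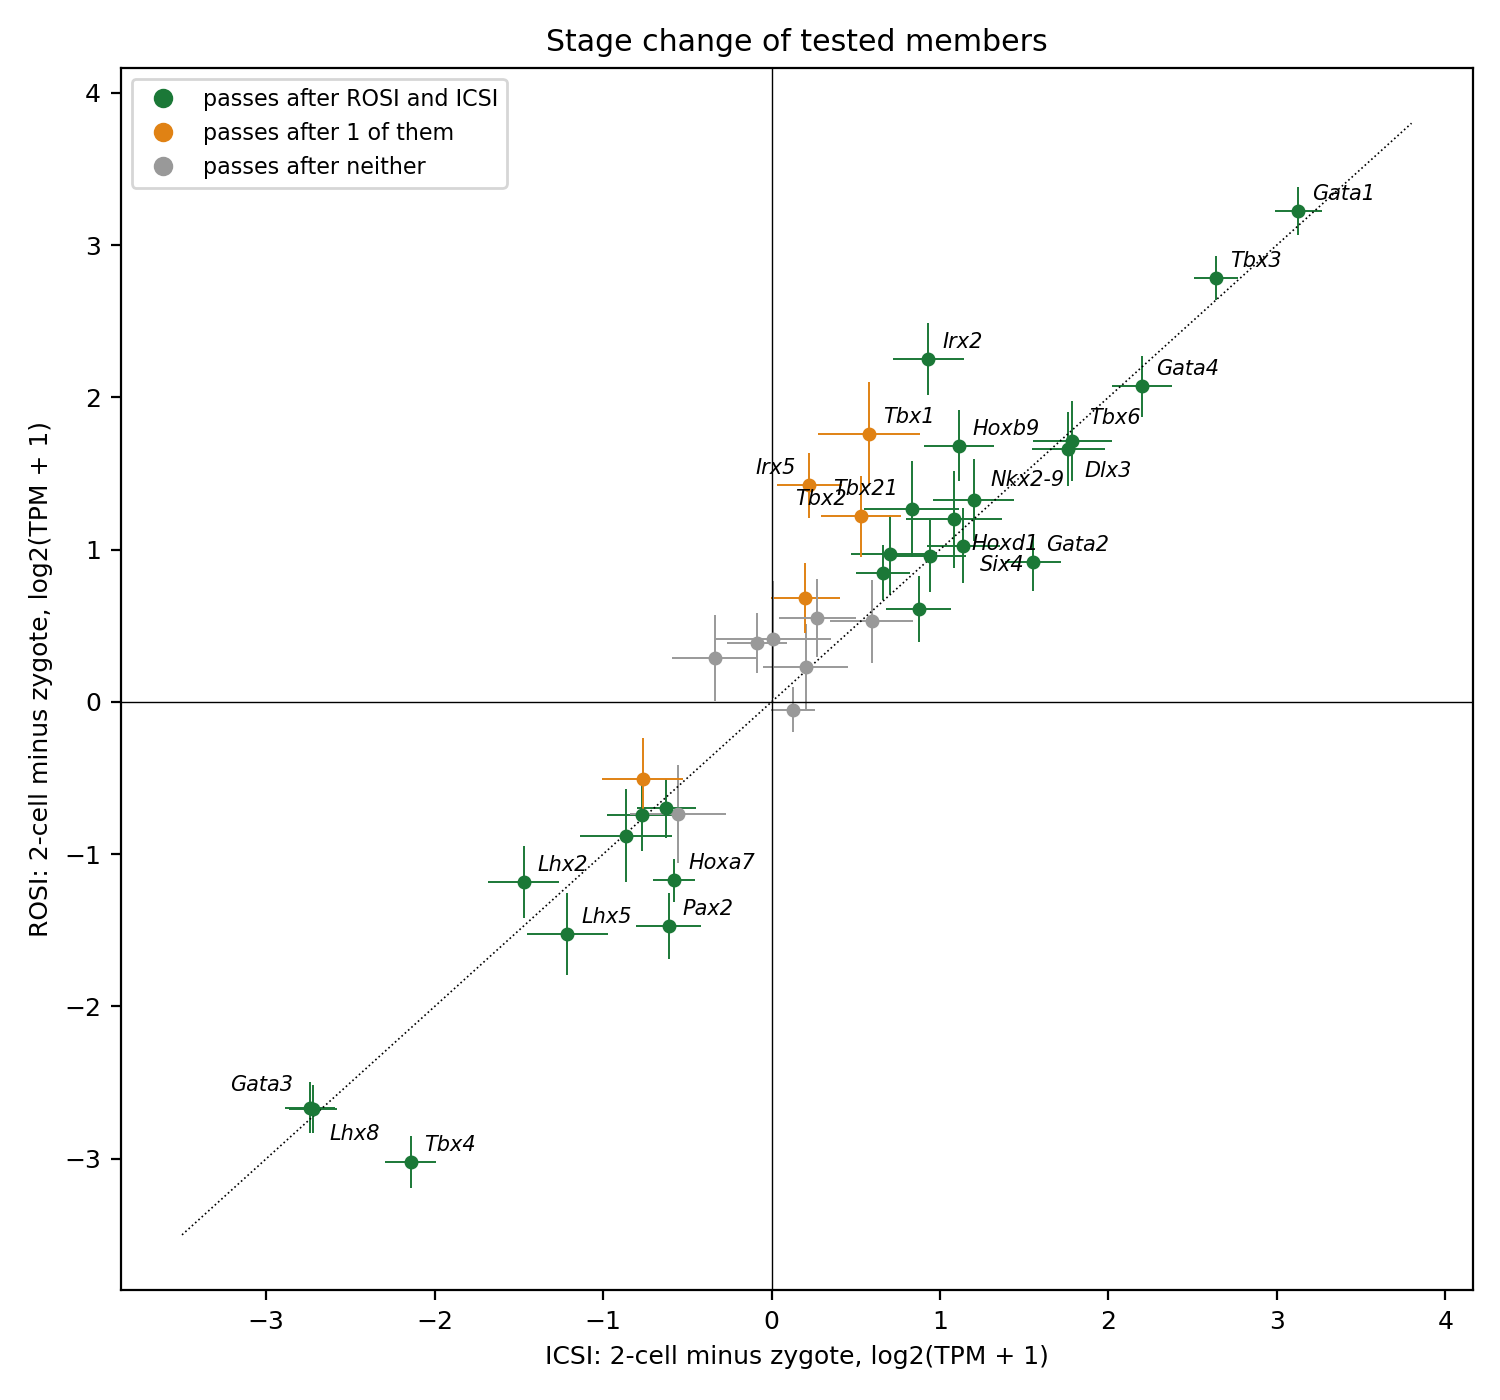
Log2 difference of 2-cell embryos against zygotes after ROSI (vertical axis) and after ICSI (horizontal axis) for members tested, with SE as bars, coloured by whether the gene passed after both, after 1 or after neither. Gata1 lies farthest up, at 3.22 after ROSI and 3.13 after ICSI, Gata3, Tbx4 and Lhx8 lie farthest down, and Irx2, Irx5 and Tbx1 lie above the dotted line of equal change while Tbx4 and Pax2 lie below it.

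Gata genes encode zinc-finger factors, and 5 of the 6 were tested. In each kind of embryo 3 were higher and 1 lower in 2-cell embryos, where 67.9% of all genes were called in ROSI and 68.1% in ICSI embryos. Gata1, the regulator of red blood cells and a gene of Sertoli cells, had 72.0, 69.4 and 78.2 TPM in ROSI 2-cell embryos, against 6.66 and 7.24 TPM in ROSI zygotes, with a log2 difference of 3.22 (SE 0.16, adjusted p = 2.32e-08). In ICSI embryos Gata1 had 54.8, 57.2 and 67.2 TPM in 2-cell embryos, against 4.64, 7.15 and 6.22 TPM in zygotes, a difference of 3.13 (SE 0.14, adjusted p = 1.02e-08). It showed the largest rise of all members in both on the log2(TPM + 1) scale. Gata4, a gene of endoderm, heart and gonad, had 82.8, 96.6 and 97.2 TPM in ROSI 2-cell embryos, against 21.4 and 20.8 TPM in ROSI zygotes, a difference of 2.07 (SE 0.20, adjusted p = 4.61e-06). In ICSI embryos Gata4 had 74.5, 105 and 93.1 TPM in 2-cell embryos, against 25.6, 15.7 and 16.4 TPM in zygotes, a difference of 2.20 (SE 0.18, adjusted p = 1.06e-06). Sertoli and Leydig cell markers without these Gata genes summed to 415 to 518 TPM in ROSI 2-cell embryos, nearly all of it Ctsl. In ROSI zygotes they summed to 10.6 to 11.5 TPM. After ICSI the sums were 312 to 410 TPM in 2-cell embryos and 8.95 to 9.85 TPM in zygotes. Of the 12 markers 4 were detected in ROSI and 3 in ICSI 2-cell embryos. Of the 6 tested, 3 rose and 1 fell in ROSI embryos, and 2 rose and 1 fell in ICSI embryos, against the shares of all genes above. Gata2, a gene of blood stem cells, had 3.56, 2.63 and 2.95 TPM in ROSI 2-cell embryos, against 0.941 and 1.35 TPM in ROSI zygotes, a difference of 0.92 (SE 0.19, adjusted p = 0.00119). In ICSI embryos Gata2 had 4.89, 3.77 and 4.04 TPM in 2-cell embryos, against 0.696, 0.672 and 0.987 TPM in zygotes, a difference of 1.55 (SE 0.17, adjusted p = 9.36e-06). Of 5 blood markers tested, 2 rose and 0 fell in ROSI embryos, and 3 rose and 0 fell in ICSI embryos, against the same shares. Summed blood markers were 5.92 to 7.34 TPM in ROSI 2-cell embryos and 1.24 to 2.29 TPM in ROSI zygotes. After ICSI they were 7.79 to 9.98 TPM in 2-cell embryos and 2.19 to 5.34 TPM in zygotes. The part of such other cells in the rise of Gata1, Gata2 and Gata4 was not tested. Gata3, a gene of trophectoderm and T cells, went the other way, with 0.770, 0.638 and 1.04 TPM in ROSI 2-cell embryos, against 9.99 and 10.95 TPM in ROSI zygotes, a difference of -2.66 (SE 0.17, adjusted p = 1.54e-07). In ICSI embryos Gata3 had 0.730, 0.608 and 1.05 TPM in 2-cell embryos, against 12.1, 10.2 and 10.6 TPM in zygotes, a difference of -2.74 (SE 0.15, adjusted p = 4.50e-08). Gata3 was thus detected in zygotes and not in 2-cell embryos of either kind, and Gata6 had no group mean above 1.07 TPM.

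T-box genes, which bind DNA through the T domain, had 9 of 13 members tested, of which 6 were higher and 1 lower in ROSI 2-cell embryos and 4 higher and 2 lower in ICSI 2-cell embryos, against the shares of all genes above. Tbx3, a gene of limb, heart and mammary gland, had 27.7, 30.9 and 35.0 TPM in ROSI 2-cell embryos, against 3.88 and 3.45 TPM in ROSI zygotes, a difference of 2.78 (SE 0.15, adjusted p = 4.12e-08). In ICSI embryos Tbx3 had 27.4, 34.3 and 28.5 TPM in 2-cell embryos, against 4.54, 3.67 and 3.75 TPM in zygotes, a difference of 2.64 (SE 0.13, adjusted p = 2.21e-08). It was detected in all groups, and every 2-cell library lay far above every zygote library. Tbx6, a gene of presomitic mesoderm, had 3.55, 3.71 and 4.04 TPM in ROSI 2-cell embryos, against 0.331 and 0.586 TPM in ROSI zygotes, a difference of 1.71 (SE 0.26, adjusted p = 0.000162). In ICSI embryos Tbx6 had 4.39, 5.22 and 3.98 TPM in 2-cell embryos, against 1.33, 0.486 and 0.175 TPM in zygotes, a difference of 1.79 (SE 0.24, adjusted p = 4.74e-05). Every 2-cell library of Tbx6 lay above every zygote library. Tbx20, a heart gene, had 1.46, 0.812 and 1.64 TPM in ROSI 2-cell embryos, against 0.257 and 0.0939 TPM in ROSI zygotes, a difference of 0.96 (SE 0.24, adjusted p = 0.00418). In ICSI embryos Tbx20 had 1.30, 1.49 and 1.49 TPM in 2-cell embryos, against 0.507, 0.193 and 0.120 TPM in zygotes, a difference of 0.94 (SE 0.21, adjusted p = 0.00225). Tbx21, which directs T helper cells, followed the same course. It had 3.51, 1.10 and 2.93 TPM in ROSI 2-cell embryos, against 0.560 and 0.233 TPM in ROSI zygotes, a difference of 1.27 (SE 0.32, adjusted p = 0.00434). In ICSI embryos Tbx21 had 1.27, 1.64 and 1.18 TPM in 2-cell embryos, against 0.576, 0.224 and 0.200 TPM in zygotes, a difference of 0.83 (SE 0.28, adjusted p = 0.0223), and that call was lost without ICSI 2-cell replicate 2, zygote replicate 2 or zygote replicate 3, with adjusted p-values of 0.0677, 0.0656 and 0.0690.

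Another 3 T-box genes passed in 1 kind of embryo. Tbx2 passed after ROSI, with 1.92, 1.40 and 1.31 TPM in ROSI 2-cell embryos, against 0.137 and 0.0376 TPM in ROSI zygotes, a difference of 1.22 (SE 0.27, adjusted p = 0.00191). In ICSI embryos Tbx2 had 1.17, 0.621 and 0.262 TPM in 2-cell embryos, against 0.299, 0.0550 and 0.0747 TPM in zygotes, a difference of 0.53 (SE 0.24, adjusted p = 0.0698). Tbx1, whose levels are given above, had a difference of 1.76 (SE 0.34, adjusted p = 0.000858) in ROSI and 0.58 (SE 0.30, adjusted p = 0.116) in ICSI embryos. Tbx5, a gene of forelimb and heart that was detected in no group, passed after ICSI. It had 0, 0.543 and 0.571 TPM in ROSI 2-cell embryos, against 1.21 and 0.642 TPM in ROSI zygotes, a difference of -0.51 (SE 0.27, adjusted p = 0.121). In ICSI embryos Tbx5 had 0.0565, 0.143 and 0.329 TPM in 2-cell embryos, against 0.779, 1.03 and 1.18 TPM in zygotes, a difference of -0.77 (SE 0.24, adjusted p = 0.0161), and without ICSI zygote replicate 3 the adjusted p was 0.0581. The test of the difference between the 2 changes did not pass for any of the 3, with 0.69 (SE 0.36, adjusted p = 0.394) for Tbx2, 1.18 (SE 0.46, adjusted p = 0.265) for Tbx1 and 0.26 (SE 0.36, adjusted p = 0.785) for Tbx5. On the log2(TPM + 1) scale Tbx4 had the largest fall of the family, -3.02 (SE 0.17, adjusted p = 6.68e-08) in ROSI and -2.14 (SE 0.15, adjusted p = 3.41e-07) in ICSI embryos, while the ratio of means in ICSI embryos was 4.50-fold lower for Tbx4 and 5.66-fold lower for Tbx5. Tbx4 was lower in all 6 libraries of 2-cell embryos than in any zygote library.

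The LIM-homeobox genes that passed fell, apart from Lhx1. Lhx8 had 15.6, 15.6 and 19.5 TPM in ROSI 2-cell embryos, against 122 and 104 TPM in ROSI zygotes, a difference of -2.67 (SE 0.16, adjusted p = 9.46e-08). In ICSI embryos Lhx8 had 18.4, 24.0 and 17.2 TPM in 2-cell embryos, against 150.0, 128 and 129.9 TPM in zygotes, a difference of -2.72 (SE 0.14, adjusted p = 3.00e-08). It was the second highest member in zygotes and the seventh in 2-cell embryos. Oocyte markers fell over the same step, 11 of 12 in each kind of embryo, where 32.3% of all genes fell in ROSI and 35% in ICSI embryos. They summed to 942 to 1145 TPM in ROSI 2-cell embryos and 5948 to 6782 TPM in ROSI zygotes. After ICSI the sums were 1515 to 1517 TPM in 2-cell embryos and 7272 to 8543 TPM in zygotes. Lhx2, a gene of forebrain, eye and hair follicle, had 1.44, 3.17 and 2.51 TPM in ROSI 2-cell embryos, against 7.32 and 5.72 TPM in ROSI zygotes, a difference of -1.18 (SE 0.24, adjusted p = 0.00106). In ICSI embryos Lhx2 had 1.62, 1.71 and 1.90 TPM in 2-cell embryos, against 7.90, 6.86 and 5.28 TPM in zygotes, a difference of -1.47 (SE 0.21, adjusted p = 9.29e-05). Lhx5, a forebrain gene, followed. It had 0.0345, 0.264 and 0.451 TPM in ROSI 2-cell embryos, against 3.26 and 1.98 TPM in ROSI zygotes, a difference of -1.52 (SE 0.27, adjusted p = 0.000427). In ICSI embryos Lhx5 had 0.196, 0.682 and 0.163 TPM in 2-cell embryos, against 1.87, 2.67 and 1.76 TPM in zygotes, a difference of -1.21 (SE 0.24, adjusted p = 0.000940). Lhx1, which the head organizer and the kidney need, was instead higher in 2-cell embryos. It had 1.89, 1.05 and 1.91 TPM in ROSI 2-cell embryos, against 0.513 and 0.151 TPM in ROSI zygotes, a difference of 0.97 (SE 0.26, adjusted p = 0.00702) that had an adjusted p of 0.0712 without ROSI zygote replicate 2. In ICSI embryos Lhx1 had 2.08, 1.43 and 1.08 TPM in 2-cell embryos, against 0.314, 0.744 and 0.565 TPM in zygotes, a difference of 0.71 (SE 0.23, adjusted p = 0.0203), with adjusted p-values of 0.0715 and 0.0729 without 2-cell replicate 1 and zygote replicate 1.

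Hox genes split as well. Hoxa7 had 27.5, 20.0 and 25.7 TPM in ROSI 2-cell embryos, against 57.7 and 53.8 TPM in ROSI zygotes, a difference of -1.17 (SE 0.14, adjusted p = 2.53e-05). In ICSI embryos Hoxa7 had 30.2, 36.7 and 32.1 TPM in 2-cell embryos, against 47.8, 47.5 and 53.7 TPM in zygotes, a difference of -0.58 (SE 0.13, adjusted p = 0.00188), and on the recovered reads with voom the ICSI change was smaller and did not pass, -0.16 with an adjusted p of 0.243. Hoxb9, which patterns the trunk, had 3.60, 3.15 and 2.69 TPM in ROSI 2-cell embryos, against 0.271 and 0.305 TPM in ROSI zygotes, a difference of 1.68 (SE 0.23, adjusted p = 7.32e-05). In ICSI embryos Hoxb9 had 2.97, 1.85 and 1.45 TPM in 2-cell embryos, against 0.271, 0.372 and 0.579 TPM in zygotes, a difference of 1.11 (SE 0.21, adjusted p = 0.000666). Hoxb4, of the same cluster, fell instead. Hoxb4 had 0, 0.119 and 0.331 TPM in ROSI 2-cell embryos, against 0.776 and 1.06 TPM in ROSI zygotes, a difference of -0.75 (SE 0.23, adjusted p = 0.0151). In ICSI embryos Hoxb4 had 0, 0.292 and 0.0856 TPM in 2-cell embryos, against 0.785, 0.917 and 1.02 TPM in zygotes, a difference of -0.77 (SE 0.21, adjusted p = 0.00711), and it was detected in no group.

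Within the Hoxd cluster, Hoxd1 rose and Hoxd13 fell. Hoxd13, which shapes the digits, had 0.112, 0.858 and 1.08 TPM in ROSI 2-cell embryos, against 2.25 and 1.75 TPM in ROSI zygotes, a difference of -0.88 (SE 0.31, adjusted p = 0.0252). In ICSI embryos Hoxd13 had 0.425, 1.17 and 0.766 TPM in 2-cell embryos, against 2.57, 1.56 and 2.60 TPM in zygotes, a difference of -0.86 (SE 0.27, adjusted p = 0.0160). Leaving out a library ended the ROSI call without 2-cell replicate 1 (0.0673) and zygote replicates 1 and 2 (0.135 and 0.0568), and the ICSI call without 2-cell replicate 1 (0.0564) and zygote replicates 1 and 3 (0.0545 and 0.0582, all adjusted p). Hoxd1 had 1.15, 2.78 and 1.83 TPM in ROSI 2-cell embryos, against 0.107 and 0.385 TPM in ROSI zygotes, a difference of 1.20 (SE 0.32, adjusted p = 0.00644), with an adjusted p of 0.0544 without ROSI zygote replicate 1. In ICSI embryos Hoxd1 had 2.55, 2.24 and 0.983 TPM in 2-cell embryos, against 0.562, 0.364 and 0.121 TPM in zygotes, a difference of 1.09 (SE 0.29, adjusted p = 0.00592). Hoxd8, detected in no group, passed after ROSI alone. It had 0.913, 1.07 and 1.37 TPM in ROSI 2-cell embryos, against 0.472 and 0.174 TPM in ROSI zygotes, a difference of 0.68 (SE 0.23, adjusted p = 0.0214), with an adjusted p of 0.158 without ROSI zygote replicate 2. In ICSI embryos Hoxd8 had 0.289, 0.699 and 0.480 TPM in 2-cell embryos, against 0.325, 0.363 and 0.181 TPM in zygotes, a difference of 0.20 (SE 0.21, adjusted p = 0.405).

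Paired-box genes take their name from a DNA-binding domain that is not a homeobox, and only some of them, such as Pax3 and Pax6, are known to carry a whole homeobox as well. Pax3, a gene of neural crest and muscle, had 1.42, 1.64 and 1.75 TPM in ROSI 2-cell embryos, against 0.354 and 0.541 TPM in ROSI zygotes, a difference of 0.85 (SE 0.18, adjusted p = 0.00160). In ICSI embryos Pax3 had 1.62, 1.70 and 1.55 TPM in 2-cell embryos, against 0.777, 0.677 and 0.533 TPM in zygotes, a difference of 0.66 (SE 0.16, adjusted p = 0.00377). It passed 1 TPM in every 2-cell library and in no zygote library. Pax5, the B cell factor, was lower in 2-cell embryos. It had 2.24, 1.77 and 2.56 TPM in ROSI 2-cell embryos, against 4.55 and 3.77 TPM in ROSI zygotes, a difference of -0.70 (SE 0.19, adjusted p = 0.00830), with an adjusted p of 0.0729 without ROSI zygote replicate 1. In ICSI embryos Pax5 had 2.24, 3.79 and 2.98 TPM in 2-cell embryos, against 5.28, 5.41 and 4.62 TPM in zygotes, a difference of -0.63 (SE 0.17, adjusted p = 0.00814), which on the recovered reads with voom was -0.29 with an adjusted p of 0.127. Pax2 fell too, with differences of -1.47 (SE 0.22, adjusted p = 0.000122) in ROSI and -0.61 (SE 0.19, adjusted p = 0.0165) in ICSI embryos. The ICSI call of Pax2 was lost without 2-cell replicate 3 (0.0659) and zygote replicate 1 (0.0686), and with voom (0.160, all adjusted p).

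The sine oculis, Dlx, Irx and Nkx genes that passed were all higher in 2-cell embryos. Six4, a homeobox gene of muscle progenitors, had 4.33, 2.48 and 3.19 TPM in ROSI 2-cell embryos, against 1.21 and 0.987 TPM in ROSI zygotes, a difference of 1.03 (SE 0.25, adjusted p = 0.00343). In ICSI embryos Six4 had 5.13, 3.03 and 3.63 TPM in 2-cell embryos, against 1.66, 0.973 and 1.03 TPM in zygotes, a difference of 1.14 (SE 0.22, adjusted p = 0.000806). Between ROSI and ICSI 2-cell embryos its difference of -0.19 (SE 0.22, adjusted p = 0.637) did not pass. Dlx3, a homeobox gene of placenta and skin, had 5.76, 4.01 and 4.66 TPM in ROSI 2-cell embryos, against 0.993 and 0.668 TPM in ROSI zygotes, a difference of 1.66 (SE 0.24, adjusted p = 0.000106). In ICSI embryos Dlx3 had 5.98, 4.57 and 7.13 TPM in 2-cell embryos, against 1.58, 0.627 and 0.935 TPM in zygotes, a difference of 1.76 (SE 0.22, adjusted p = 2.67e-05). Dlx2 followed at lower levels. It had 1.75, 2.13 and 1.70 TPM in ROSI 2-cell embryos, against 1.12 and 0.657 TPM in ROSI zygotes, a difference of 0.61 (SE 0.22, adjusted p = 0.0272) that had adjusted p-values of 0.0724 without 2-cell replicate 2 and 0.201 without zygote replicate 2. In ICSI embryos Dlx2 had 1.76, 1.69 and 1.59 TPM in 2-cell embryos, against 0.814, 0.377 and 0.253 TPM in zygotes, a difference of 0.87 (SE 0.19, adjusted p = 0.00201). Irx2 had differences of 2.25 (SE 0.23, adjusted p = 8.05e-06) in ROSI and 0.93 (SE 0.21, adjusted p = 0.00233) in ICSI embryos, and Irx5 of 1.42 (SE 0.22, adjusted p = 0.000150) in ROSI and 0.22 (SE 0.19, adjusted p = 0.325) in ICSI embryos. Nkx2-9, a gene of the ventral neural tube, had 4.04, 2.65 and 1.82 TPM in ROSI 2-cell embryos, against 0.709 and 0.297 TPM in ROSI zygotes, a difference of 1.33 (SE 0.27, adjusted p = 0.00118). In ICSI embryos Nkx2-9 had 1.67, 2.37 and 1.80 TPM in 2-cell embryos, against 0.460, 0.284 and 0.107 TPM in zygotes, a difference of 1.20 (SE 0.24, adjusted p = 0.00105). Nkx6-2, a gene of neural tube and myelin-forming cells, was detected in all groups and passed in none, with 9.10, 4.10 and 11.1 TPM in ROSI 2-cell embryos, 5.22 and 5.65 TPM in ROSI zygotes, 7.06, 3.06 and 3.22 TPM in ICSI 2-cell embryos and 5.40, 4.16 and 3.10 TPM in ICSI zygotes.

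Whether the change over the division differed between ROSI and ICSI embryos was tested as the difference of the 2 changes. No member passed, and the background is 0.0182% of all genes called (0.0137% higher and 0.00456% lower). An unadjusted p under 0.05 was found for 8 of the 41 members, against 15.1% of all genes. Among the largest were Irx2 with 1.32 (SE 0.32, adjusted p = 0.117), Irx5 with 1.20 (SE 0.29, adjusted p = 0.119) and Tbx4 with -0.88 (SE 0.23, adjusted p = 0.136). Under median-ratio scaling Tbx4 passed, where 1.38% of all genes were called, and with voom on the recovered reads Tbx4 and Irx5 did, where 2.72% were.

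Genes that work with these families were read in the same fit. Of 29 partner proteins, such as the TALE homeobox cofactors of Hox factors and the LIM cofactors, 22 were tested. In 2-cell embryos the Hox cofactors Pknox1 and Pbx3 were higher after ROSI, with log2 differences of 0.88 (SE 0.20, adjusted p = 0.0249) and 0.58 (SE 0.14, adjusted p = 0.0340). Lower were Lmo1, a LIM-only protein, with -1.09 (SE 0.12, adjusted p = 0.00323), Pbx2 with -0.69 (SE 0.17, adjusted p = 0.0332) and Zfpm1, a partner of Gata factors, with -0.56 (SE 0.15, adjusted p = 0.0421). The list median was -0.08, and 9.51% of all genes were called at this stage. None of the list was called in zygotes, where 0.146% of all genes were. From zygote to 2-cell stage 7 rose and 11 fell in ROSI and 5 rose and 12 fell in ICSI embryos, with a median of -0.54 in each. Of all genes, 67.9% were called in ROSI and 68.1% in ICSI embryos over this step. The highest of the list were Ldb1, with 46.6 ± 4.88 TPM in ROSI and 43.6 ± 5.32 TPM in ICSI 2-cell embryos, and Lmo1, with 52.7 ± 8.22 TPM in ROSI and 113 ± 12.3 TPM in ICSI 2-cell embryos (SD, n = 3 each).

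Other homeobox and T-box genes, outside the symbol rule, were read too. Of 58 such genes 32 were tested, and 15 were detected in ROSI 2-cell embryos and 19 in ROSI zygotes, and 18 in ICSI 2-cell embryos and 17 in ICSI zygotes. Gbx2, a gene of the midbrain-hindbrain border, was the 1 that passed between ROSI and ICSI 2-cell embryos, -0.84 (SE 0.15, adjusted p = 0.00958), and none passed in zygotes. The shares of all genes called were 9.51% in 2-cell embryos and 0.146% in zygotes. Over the division 13 rose and 13 fell in ROSI and 13 rose and 14 fell in ICSI embryos, where 67.9% and 68.1% of all genes were called. The highest were Pou4f1, with 52.0 ± 1.53 TPM in ROSI and 58.8 ± 5.29 TPM in ICSI 2-cell embryos, and Hhex, with 64.5 ± 5.56 TPM in ROSI and 61.1 ± 6.53 TPM in ICSI 2-cell embryos (SD, n = 3 each).

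Genes of Polycomb proteins and of the demethylases that remove their mark were read as RNA, and 28 of the 33 were detected in each zygote group and 29 in each 2-cell group. Their summed level, of which Bmi1 gives a large part, was 2822 to 3384 TPM in ROSI 2-cell embryos and 5405 to 5472 TPM in ROSI zygotes, and 3237 to 3673 TPM in ICSI 2-cell embryos and 5488 to 5604 TPM in ICSI zygotes. Of the 31 tested, 8 rose and 15 fell in ROSI and 8 rose and 18 fell in ICSI embryos, with medians of -0.39 and -0.69. Of all genes, 67.9% and 68.1% were called in these 2 comparisons. Kdm6b, an H3K27 demethylase, was the 1 that passed between ROSI and ICSI 2-cell embryos, -0.97 (SE 0.15, adjusted p = 0.00681), where 9.51% of all genes were called. The highest were Bmi1, with 1059 ± 118 TPM in ROSI and 1179 ± 50.1 TPM in ICSI 2-cell embryos, and Rbbp7, with 209.8 ± 35.3 TPM in ROSI and 234 ± 23.4 TPM in ICSI 2-cell embryos (SD, n = 3 each).

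Antisense and host transcripts at the members' loci matter to the counts, since exons of genes such as Hoxa7, Gata3, Lhx5, Nkx6-2, Pax5 and Tbx3 overlap a transcript on the other strand. Read here were 24 antisense and host transcripts chosen by symbol, among them Hoxaas3 and Tbx3os1. The transcripts that overlap Gata3, Lhx5, Nkx6-2 and Pax5 on the other strand bear other names and were not read. Of the 24 transcripts 5 were tested, and none passed between ROSI and ICSI embryos at either stage. Over the division 1 rose and 3 fell in each kind of embryo, where 67.9% of all genes were called in ROSI and 68.1% in ICSI embryos. The highest were Tbx3os1, with 1.96 ± 0.297 TPM in ROSI and 2.997 ± 0.675 TPM in ICSI 2-cell embryos, and Tbx3os2, with 2.11 ± 1.64 TPM in ROSI and 3.40 ± 2.51 TPM in ICSI 2-cell embryos (SD, n = 3 each). The listed transcripts together were higher in zygotes, with sums of 43.2 to 54.3 TPM over the zygote libraries of both kinds. In 2-cell embryos they summed to 12.3 to 15.2 TPM after ROSI and 10.97 to 20.4 TPM after ICSI. Reads of the overlapping exons are uncertain between the partners, at both stages, wherever the strand was not used.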

How the data were processed

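Total RNA, extracted with ISOGEN II, had been sequenced from 11 libraries of zygotes and 2-cell embryos. The authors deposited 1 table of TPM values for 49585 genes. Per the submitters' processing notes, the tools were fastp, Bowtie2, STAR 2.7.4a and featureCounts, with the mm10 build; the annotation and the strand setting are not given in the sources used here. Of the symbols, 93 appear on 2 rows, none of them a member. Reads were recovered as TPM times the GENCODE M21 exon length, scaled by the step of 1 read; of values under 200 reads, 87.9% to 90.7% came out whole within 0.01 in a library, and depth was 8.48 to 85.9 M reads (M for 1e6). TPM values depend on all other RNA in the library.

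Members were matched by symbol, and a few of them, though counted, are not reported here. Log2(TPM + 1) was tested with limma 3.58.1 in R 4.3.3 with a trend, after a filter of 1 TPM in 2 libraries, in 1 model of 4 group means, at a Benjamini-Hochberg adjusted p of 0.05. Named with levels were members detected in at least 1 group, with every library's value for those that passed a test and the 10 highest; undetected members with a group mean of at least 0.5 TPM were named and the rest counted; of other lists, those that passed between ROSI and ICSI and the 2 highest. The members and the lists were chosen with earlier results of these data known. Alternatives were the pseudocount, the filter, median-ratio scaling, voom on recovered reads, array weights (a weight per library) and no trend in the variance. Others were only the groups compared, a replicate block, each library left out, and other thresholds of detection. Thinning to the depth of the shallowest library was chosen after seeing the data. The fit was tested on simulated data with 200 changed genes per comparison of ROSI with ICSI. Of 187 calls in zygotes 16 were false, and of 200 calls at the 2-cell stage 20 were false. Changes of 1 log2 unit were recovered for 77% and 81% of genes. The changed genes were drawn from well expressed ones, so members near 1 TPM were not covered. Analyses used Python 3.11.15, pandas 2.3.3 and matplotlib 3.10.9.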

Additional observations from a re-analysis of the deposited data

How the results depend on the processing

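Directions of all called members held under every alternative: of their values under an alternative, 940 kept their side of the threshold and 59 did not. Between ROSI and ICSI zygotes the count of called members was 0 under each alternative that kept both ROSI zygote libraries. The share of all genes called there was at most 1.42%, with array weights. At the 2-cell stage it was 0 with only the groups of the contrast, where 49 genes of all tested were called higher and 36 lower, and 2 to 6 when 1 library was left out, with 2 without ROSI replicate 2 and 3 without ICSI replicate 2, where 4.42% and 5% of all genes were called. Tbx1 missed with a pseudocount of 0.1 (adjusted p = 0.115), and Tbx1 and Pax2 missed with no filter (0.0723 and 0.0521). Under median-ratio scaling, 1046 genes were called higher and 2363 lower of all tested at this stage, against 1082 and 1005 in TPM, and the members called were 3 higher and 5 lower; voom gave 1604 and 960. With a filter of 5 TPM, 15 members were tested and 13 called in each stage comparison, against 84% of all genes in ROSI and 83.9% in ICSI embryos. With voom the median stage difference of all genes was 0.69 in ROSI and 0.56 in ICSI embryos, against 0.19 and 0.00, and of the members tested only Tbx19 in ROSI and Pax6 in ICSI embryos, neither of them called, changed sign. The difference of changes gave 1 called member under median-ratio scaling and 2 with voom, where 1.38% and 2.72% of all genes were called.

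The same replicate numbers gave correlations of deviations of 0.33 and 0.22 between zygote groups and -0.04 to 0.06 elsewhere. The numbers were not taken to pair the libraries; between zygotes, with 2 pairs, this is not settled. With a replicate block the counts were 0 in zygotes, 6 at the 2-cell stage, 32 and 29 over the division in ROSI and ICSI embryos, and 0 for the difference of changes.

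Detection depends on its threshold. At 0.1 TPM, 52 members were detected in ROSI 2-cell and 49 in ICSI 2-cell embryos, 59 in ROSI zygotes and 61 in ICSI zygotes. At 0.5 TPM zygotes had 30 after ROSI and 29 after ICSI, and at 5 TPM each 2-cell group had 9 and ICSI zygotes 8. At 10 reads in every library, ROSI zygotes had 44 and ICSI zygotes 53. Without replicate 2, that is with 1 library, ROSI zygotes had 22. Listed for ROSI 2-cell embryos, ICSI 2-cell embryos, ROSI zygotes and ICSI zygotes, silent genes numbered 11, 18, 25 and 11 at under 0.1 TPM in every library, 25, 32, 30 and 20 at under 0.1 TPM in the mean, and 15, 23, 17 and 4 at up to 3 reads in every library. With 1 library left out they ranged from 4 to 11, 8 to 15, 9 to 10 and 1 to 3. In the shallowest library 1 read of a 2 kb transcript is 0.132 TPM, and in the deepest 0.0171 TPM, so absence under those levels cannot be read. Where a ROSI zygote library is left out, the lone library is assumed to vary like the other groups.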
